A study of Homo sapiens with 6 samples.

Results

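The 10 genes described here encode apolipoproteins and factors that assemble very low density lipoprotein (VLDL): APOB, APOA1, APOA2, APOC3, APOE, APOM and APOH, and MTTP, CIDEB and TM6SF2. They were chosen by name for these roles, and each matched 1 of the 50868 gene IDs in the deposited table. Expression was measured by RNA sequencing in Huh7 cells, an established human hepatocellular carcinoma line with the genotype given as WT, cultured in DMEM with fetal bovine serum. The cells received 20 µM of the cell-permeating peptide P-T3H2 (3 libraries) or of its control peptide P-T3H2-2A (3 libraries, also named control replicates) for 5 days. The design text concerns the transcriptional activity of HNF4α, so the comparison asks how the transcripts of these liver genes differed between the peptides. All libraries come from 1 tumour cell line, and untreated cells were not analysed here. Nothing in the labels says that replicates were separate cultures, so p-values measure only the spread between these libraries, which may be technical.

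Hepatocytes export triglyceride as VLDL. The microsomal triglyceride transfer protein, MTTP, loads lipid onto APOB as it enters the endoplasmic reticulum, and the particle gains more lipid along the secretory pathway, where CIDEB and TM6SF2 act. Smaller exchangeable apolipoproteins such as APOC3 and APOE travel on VLDL, while APOA1 and APOA2 are the main proteins of high density lipoprotein. HNF4α is a nuclear receptor known to bind regulatory regions of several of these genes in hepatocytes.

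Total counts per library ranged from 17434442 to 21374732. The library labelled P-T3H2-2A replicate 3 stood apart from the other P-T3H2-2A libraries and near the P-T3H2 libraries. Whether its label is right was not tested, and it was kept in the group its label gives. With all 6 libraries edgeR called 1 of 15946 genes (0.00627%) at a false discovery rate of 0.05, and without that library it called 7390 of 16281 (45.4%). Results are therefore given for both, as the 6-library and the 5-library fit. That library was left out because of its expression values, which are also what the fit compares, so p-values of the 5-library fit do not allow for this choice and describe the 5 remaining libraries. "Rose" and "fell" below refer to that fit only. All 10 hepatocyte markers were detected, led by AFP at 9000.4 to 10776 CPM (counts scaled by library total and TMM factor). Summed markers of other cell types ranged, with P-T3H2-2A and with P-T3H2, over 272 to 470 and 438 to 473 CPM for cholangiocytes, 9.37 to 16.9 and 10.7 to 11.5 CPM for enterocytes, 4.14 to 11.9 and 4.98 to 5.16 CPM for endothelium, 32.6 to 51.9 and 42.1 to 50.3 CPM for stellate cells or fibroblasts, and 3.77 to 10.7 and 3.57 to 4.24 CPM for leukocytes. KDR, TEK, FABP2, MUC2 and CD163 were at 0 in every library. Ribosomal protein genes took 3.04 and 2.91% of counts in P-T3H2-2A replicates 1 and 2, 2.24% in replicate 3 and 2.14 to 2.24% with P-T3H2, and mitochondrial messenger RNAs took 5.998 and 5.99%, 6.91% and 6.87 to 7.39%. The part of these shifts in the results was not tested.

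None of the 10 genes passed in the 6-library fit by edgeR, DESeq2 or limma-voom. At an unadjusted p under 0.05 edgeR had 2 of the 10, CIDEB and APOC3, against 2874 of the 15946 genes tested, so 2 of 10 was near the background. In the 5-library fit CIDEB and APOE rose, APOB, MTTP and APOC3 fell, and 5 did not pass. Of all genes 45.4% passed in that fit, 22.6% as higher and 22.8% as lower, so 5 of 10 was near the background. The median log2 fold change of the 10 genes was -0.01 in the 6-library and 0.02 in the 5-library fit, against -0.0039 and 0.0028 over all genes tested. In bulk RNA, fewer cells making a transcript and less of it per cell cannot be told apart.

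**Figure D1:**
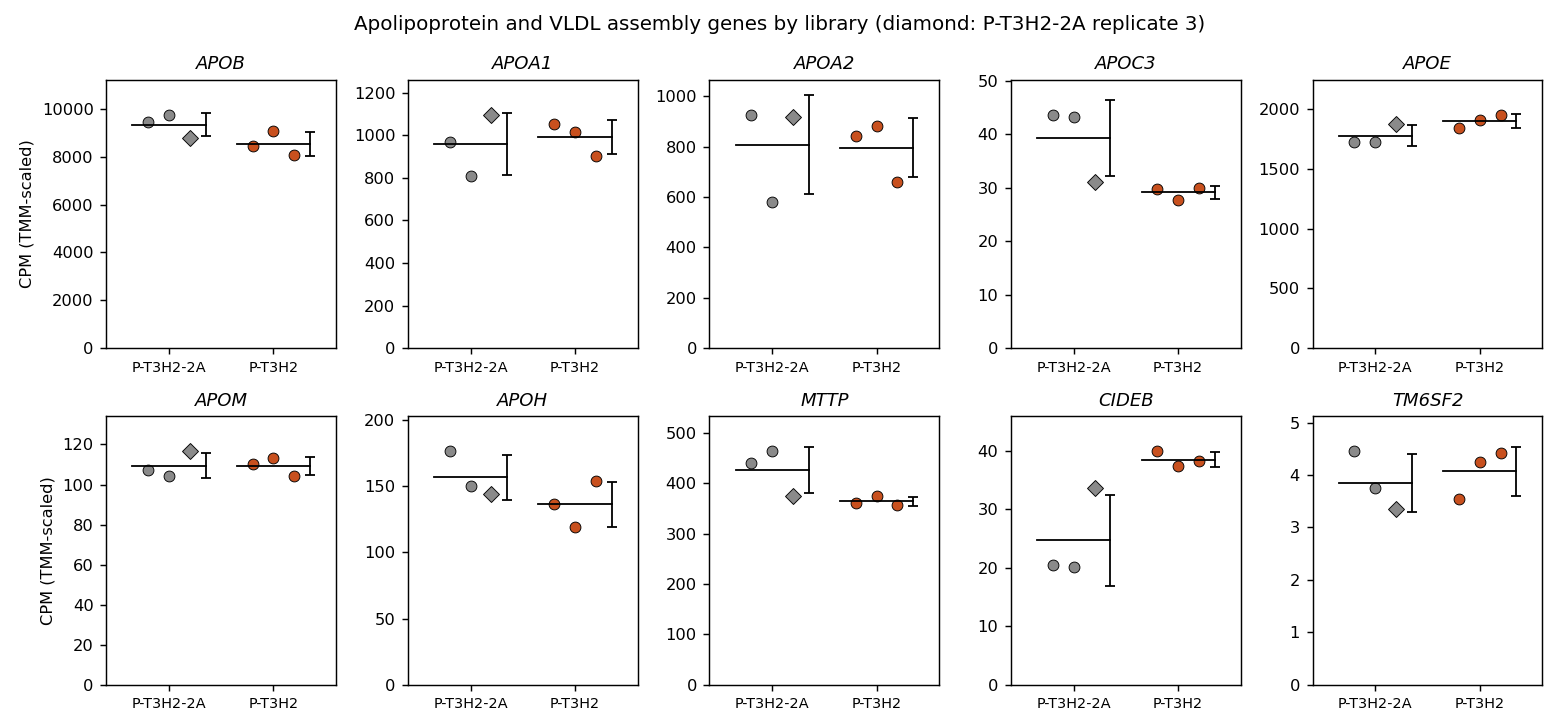
Scaled CPM (y axis, from 0) of the 10 genes in each library, with P-T3H2-2A in grey and P-T3H2 in orange; lines are group means and bars 1 SD (n = 3). The diamond, P-T3H2-2A replicate 3, lies beside the P-T3H2 libraries for APOC3 and MTTP, with 31.1 CPM of APOC3 against 27.8 to 30.02 CPM with P-T3H2.

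Promoter sequences of 7 of the 10 genes, 11 start sites in all, were found in RefSeq's table for GRCh38.p14, each from 250 bases before to 50 after a start. No entry was found for APOA1, APOB or APOC3, so their promoters were not searched. CIDEB and MTTP are shown because they moved in opposite directions in the 5-library fit and because 1 start of each gene, and no other entry, held a motif searched. The motifs were the HNF4A 9-mer CAAAGTCCA (reverse TGGACTTTG), held by 0.385% of 34796 promoters of this length, and the nuclear receptor half-site AGGTCA (reverse TGACCT), held by 13.8%. Both strands were searched, the letters of the motifs do not overlap in these sequences, and capitals mark the matches.
CIDEB, chr14:24307928-24308227, minus strand: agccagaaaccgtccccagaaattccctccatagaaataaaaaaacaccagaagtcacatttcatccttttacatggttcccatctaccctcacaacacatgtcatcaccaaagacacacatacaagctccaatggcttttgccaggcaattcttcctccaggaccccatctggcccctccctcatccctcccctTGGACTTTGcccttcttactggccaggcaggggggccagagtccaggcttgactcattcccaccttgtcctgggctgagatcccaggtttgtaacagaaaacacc
MTTP, chr4:99574574-99574873, plus strand: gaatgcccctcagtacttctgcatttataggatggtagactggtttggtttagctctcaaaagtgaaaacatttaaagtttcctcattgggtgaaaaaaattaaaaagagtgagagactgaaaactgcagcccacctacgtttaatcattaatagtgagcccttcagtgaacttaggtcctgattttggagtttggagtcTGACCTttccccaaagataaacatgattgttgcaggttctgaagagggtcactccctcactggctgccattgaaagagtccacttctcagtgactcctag
The CIDEB match lies 55 to 47 bases before the start and the MTTP match 50 to 45 bases before it, both read on the other strand. The other start of each gene, and the entries of APOA2, APOE, APOH, APOM and TM6SF2, did not hold these letters. A match describes letters in a window, and no binding was measured.

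APOB, the structural protein of VLDL, had 164000 to 197349 counts per library. It measured 9474, 9759 and 8804 CPM for control replicates 1, 2 and 3 and 8455, 9083 and 8079 CPM with P-T3H2 (ENSG00000084674, chromosome 2, 21001429 to 21044073, minus strand, GRCh38). The groups overlapped, because P-T3H2-2A replicate 3 lay below P-T3H2 replicate 2. Its log2 fold change, given with its standard error (SE), came to -0.13 (SE 0.0829) in the 6-library fit (edgeR, adjusted p = 0.355). Without control replicate 3, APOB fell by 0.17 on the log2 scale (SE 0.0547, edgeR adjusted p = 0.0378), a call that DESeq2 did not make (adjusted p = 0.0677). Counting error was 0.225% to 0.247% per library, under the coefficients of variation of 5.25% among P-T3H2-2A and 5.94% among P-T3H2 libraries.

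MTTP stood at 439.8, 463 and 375 CPM with P-T3H2-2A and at 361, 374 and 357 CPM with P-T3H2 (ENSG00000138823, chromosome 4, 99563761 to 99623999, plus strand, GRCh38). The groups did not overlap, but P-T3H2-2A replicate 3 lay barely above the highest P-T3H2 library. Its log2 fold change came to -0.23 (SE 0.102, edgeR adjusted p = 0.278) in the 6-library fit. In the 5-library fit MTTP fell 1.24-fold, a log2 fold change of -0.31 (SE 0.0471, edgeR adjusted p = 0.00177; DESeq2 adjusted p = 1.17e-05). The ratio of MTTP to APOB in the authors' FPKM (fragments scaled by length and library total) was 0.0760 and 0.0776 in P-T3H2-2A replicates 1 and 2, 0.0697 in replicate 3 and 0.0674 to 0.0723 with P-T3H2.

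CIDEB, a lipid droplet protein that takes part in the lipidation of VLDL, had the largest fold change of the 10 genes in both fits. It measured 20.4 and 20.1 CPM for control replicates 1 and 2, 33.7 CPM for control replicate 3 and 39.9, 37.3 and 38.3 CPM with P-T3H2 (ENSG00000136305, chromosome 14, 24305096 to 24311430, minus strand, GRCh38). Every P-T3H2 library lay above every P-T3H2-2A library, with replicate 3 between the other controls and P-T3H2. Its log2 fold change came to 0.64 (SE 0.213, edgeR adjusted p = 0.275) in the 6-library fit. Without control replicate 3, CIDEB rose 1.90-fold, a log2 fold change of 0.93 (SE 0.0732, edgeR adjusted p = 0.000126). Against control replicate 3 alone, whose unmeasured spread was taken to equal that of P-T3H2, the value was 0.19 (SE 0.0986, edgeR adjusted p = 0.996). The FPKM ratio of CIDEB to MTTP was 0.0859 and 0.0803 in P-T3H2-2A replicates 1 and 2, 0.166 in replicate 3 and 0.185 to 0.204 with P-T3H2.

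Of the exon bases annotated for CIDEB, 61.1% are shared with NOP9 and 39.9% with LTB4R2, both on the opposite strand. The strand setting of the counting is not given in the sources used here, so reads from the shared exons cannot be told apart and the size of the CIDEB change is uncertain. NOP9, a more abundant transcript, fell in the 5-library fit: it measured 97.1 and 97.5 CPM for control replicates 1 and 2, 65.2 CPM for control replicate 3 and 64.3 to 68.04 CPM with P-T3H2 (log2 fold change -0.55 in the 5-library fit, edgeR adjusted p = 0.000307, and -0.38 in the 6-library fit, which did not pass). LTB4R2 stood between 0.847 and 1.77 CPM.

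TM6SF2, a membrane protein of the secretory pathway that supports lipid loading of VLDL, was the lowest of the 10, with 71 to 94 counts per library and a counting error of 10.3% to 11.9%. It stood at 4.45, 3.76 and 3.34 CPM with P-T3H2-2A and at 3.54, 4.24 and 4.42 CPM with P-T3H2 (ENSG00000213996, chromosome 19, 19264364 to 19273391, minus strand, GRCh38). The P-T3H2 libraries lay inside the P-T3H2-2A range. Its log2 fold change came to 0.08 (SE 0.182) in the 6-library and -0.01 (SE 0.174) in the 5-library fit (edgeR, adjusted p = 0.787 and 0.963), and no difference was detectable at this depth. AC138430.1 on the same strand shares 46.7% of its exon bases, so its level is uncertain.

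APOC3, an inhibitor of triglyceride clearance carried on VLDL, measured 43.7 and 43.2 CPM for control replicates 1 and 2, 31.1 CPM for control replicate 3 and 29.8, 27.8 and 30.02 CPM with P-T3H2 (ENSG00000110245, chromosome 11, 116829706 to 116833072, plus strand, GRCh38). Every P-T3H2 library was below every P-T3H2-2A library. Its log2 fold change came to -0.43 (SE 0.149, edgeR adjusted p = 0.275) in the 6-library fit. In the 5-library fit APOC3 fell 1.49-fold, a log2 fold change of -0.57 (SE 0.0697, edgeR adjusted p = 0.000681). APOC3, MTTP and CIDEB were the 3 of the 10 genes whose groups did not overlap with all libraries, beside 23.4% of all genes tested. Without P-T3H2-2A replicate 3 the groups of 5 genes did not overlap, beside 67.2%.

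APOE, the ligand through which remnant particles reach their receptors, stood at 1729.8, 1730.3 and 1881 CPM with P-T3H2-2A and at 1841, 1907 and 1954 CPM with P-T3H2 (ENSG00000130203, chromosome 19, 44905754 to 44909393, plus strand, GRCh38). P-T3H2-2A replicate 3 lay inside the P-T3H2 range, and the other P-T3H2-2A libraries lay below it. Its log2 fold change came to 0.09 (SE 0.0783, edgeR adjusted p = 0.458) in the 6-library fit. Without control replicate 3, APOE rose 1.10-fold, a log2 fold change of 0.13 (SE 0.0416, edgeR adjusted p = 0.0349), a call that DESeq2 did not make (adjusted p = 0.0642).

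APOA1, the main protein of high density lipoprotein, stood at 968, 807 and 1096 CPM with P-T3H2-2A and at 1053, 1016 and 902 CPM with P-T3H2 (ENSG00000118137, chromosome 11, 116835751 to 116837950, minus strand, GRCh38). APOA2, also a protein of that particle, stood at 927, 580.1 and 918 CPM with P-T3H2-2A and at 844, 883 and 662 CPM with P-T3H2 (ENSG00000158874, chromosome 1, 161222292 to 161223631, minus strand, GRCh38). Both were lowest, within each group, in P-T3H2-2A replicate 2 and in P-T3H2 replicate 3, and the groups overlapped. Their coefficients of variation among P-T3H2-2A libraries were 15.1% and 24.4%, against counting errors of 0.655% to 0.783% and 0.716% to 0.923%. The log2 fold changes of APOA1 were 0.05 (SE 0.133) and 0.16 (SE 0.104) in the 6- and 5-library fits (edgeR, adjusted p = 0.824 and 0.271). Those of APOA2 were -0.02 (SE 0.209) and 0.08 (SE 0.272), with edgeR adjusted p = 0.955 and 0.842.

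APOM, which carries sphingosine 1-phosphate on high density lipoprotein, stood at 107, 104 and 117 CPM with P-T3H2-2A and at 110.1, 113 and 104 CPM with P-T3H2 (ENSG00000204444, chromosome 6, 31652416 to 31658210, plus strand, GRCh38). Its groups overlapped, and its log2 fold changes were -0.0034 (SE 0.0831) and 0.04 (SE 0.0576) in the 6- and 5-library fits (edgeR, adjusted p = 0.982 and 0.580). APOH, a phospholipid-binding plasma glycoprotein, stood at 176, 150.1 and 144 CPM with P-T3H2-2A and at 136, 119 and 154 CPM with P-T3H2 (ENSG00000091583, chromosome 17, 66212033 to 66256525, minus strand, GRCh38). Its groups overlapped, because P-T3H2 replicate 3 lay above P-T3H2-2A replicates 2 and 3, and its log2 fold changes were -0.20 (SE 0.129) and -0.26 (SE 0.124), with edgeR adjusted p = 0.355 and 0.143.

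**Figure D2:**
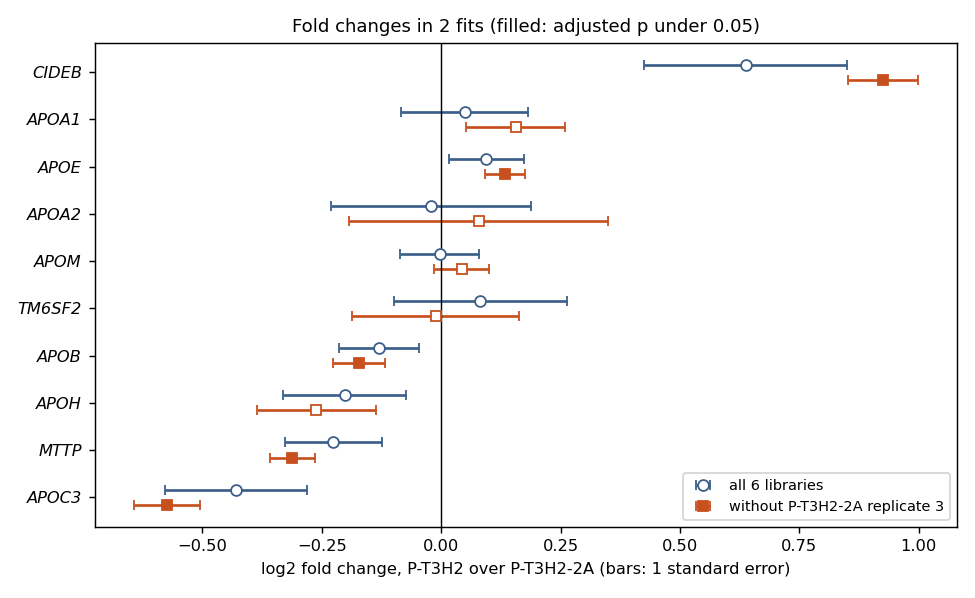
Log2 fold change of P-T3H2 over P-T3H2-2A (x axis) for each gene with all 6 libraries and without P-T3H2-2A replicate 3; bars are 1 standard error, and filled points have an adjusted p under 0.05 in edgeR. No point is filled with all libraries, and CIDEB at 0.93, APOE at 0.13, APOB at -0.17, MTTP at -0.31 and APOC3 at -0.57 are filled without that library.

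Levels of different genes were compared per length. In the authors' FPKM with P-T3H2-2A (mean ± SD, n = 3), APOB stood at 546 ± 28.4, APOA1 at 510.1 ± 77.2 and APOE at 461 ± 23.6, and these neighbours did not differ beyond their spread. APOA2 followed at 269 ± 65.2, APOH at 79.6 ± 8.32, APOM at 57.1 ± 3.37, MTTP at 40.7 ± 4.34, APOC3 at 26.1 ± 4.66, CIDEB at 4.38 ± 1.39 and TM6SF2 at 0.795 ± 0.112, each apart from the next by more than the sum of their SDs. The lengths behind FPKM are longer than the annotated exon bases, with a median ratio of 1.46 over 15863 genes and a ratio of 3.17 for APOA2. Per kilobase of annotated exon the means fell in another order, with APOA2 at 855 ± 209 CPM, APOE at 813 ± 39.8 CPM, APOA1 at 672 ± 102 CPM and APOB at 630.3 ± 33.1 CPM, and with MTTP at 78.9 ± 8.47 CPM above APOM at 65.9 ± 3.80 CPM. Neighbours from APOA2 to APOB did not differ by more than the sum of their SDs, so the order of neighbours is not resolved. APOE lay above APOB by more than that sum here but below APOB by more than it in FPKM. The order of APOE and APOB therefore depends on the length used. MTTP and APOM differed by more than that sum with P-T3H2-2A, but in replicate 3 MTTP stood at 69.4 CPM and APOM at 70.2 CPM. With P-T3H2 they stood at 67.4 ± 1.61 and 65.8 ± 2.75 CPM and did not differ by more than that sum. The 10 genes together took 1.38 and 1.37% of counts in P-T3H2-2A replicates 1 and 2, 1.34% in replicate 3 and 1.23 to 1.35% with P-T3H2. Most of this was APOB, a long transcript, with 0.941 and 0.977%, 0.881% and 0.810 to 0.906% in the same order.

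Transcript length moved with the fold changes of the 5-library fit across all genes. Among genes with a mean of at least 10 CPM, the median log2 fold change was -0.39 for up to 1000 exon bases (240 genes), -0.20 for 1000 to 2000 (636 genes), -0.13 for 2000 to 4000 (2448 genes), -0.01 for 4000 to 8000 (4266 genes) and 0.11 above that (2303 genes). APOC3, with 866 exon bases, had -0.57 in that fit, at the lower quartile of its class (-0.57), whereas APOA2, with 945, had 0.08, above the upper quartile (-0.09). MTTP (5398 exon bases) at -0.31 and APOB (14828) at -0.17 lay just below the lower quartiles of their classes (-0.29 and -0.16). CIDEB (3198 exon bases) at 0.93 lay above its upper quartile of 0.19. The part of length in these changes was not tested.

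**Figure D3:**
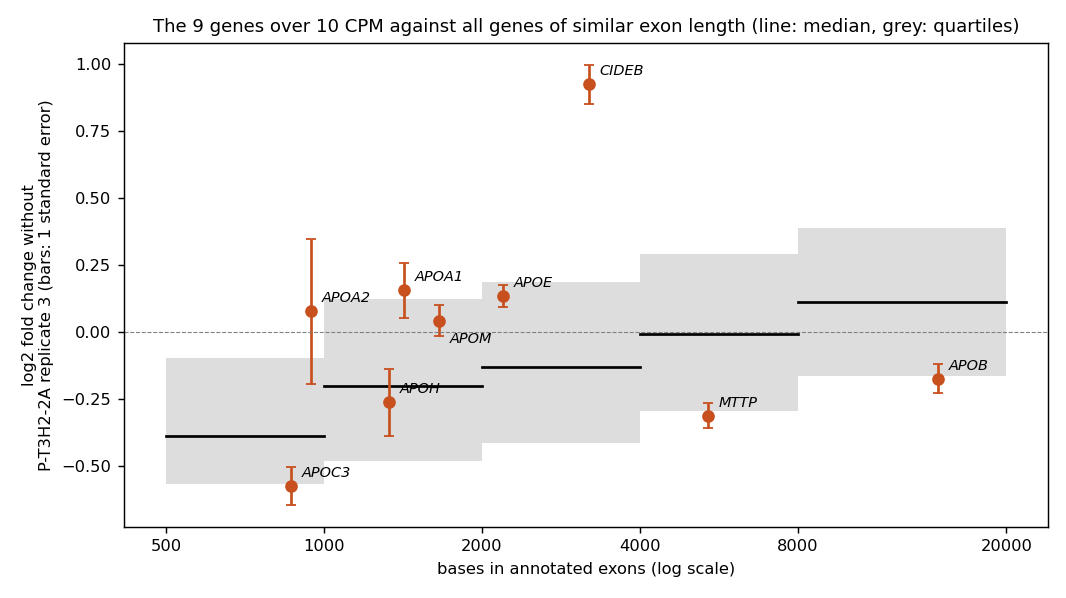
Log2 fold change without P-T3H2-2A replicate 3 (y axis) against annotated exon bases (x axis, log scale) for the genes of the 10 with a mean of at least 10 CPM, with 1 standard error; lines are medians and bands quartiles of all genes in each length class. The class medians go from -0.39 to 0.11, and CIDEB lies furthest from its band.

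APOA1 and APOC3 lie in a gene cluster on chromosome 11 with APOA4 and APOA5, and APOE lies in one on chromosome 19 with APOC1, APOC4 and APOC2. APOA5, an activator of triglyceride lipolysis, stood at 9.53, 10.8 and 15.7 CPM with P-T3H2-2A and at 13.9, 16.8 and 19.4 CPM with P-T3H2, and rose in the 5-library fit (log2 fold change 0.72, edgeR adjusted p = 0.00875; 0.48 and 0.279 with all libraries), where APOC3 fell. APOA4 held 3.004 to 4.52 CPM with P-T3H2-2A and 3.96 to 5.22 CPM with P-T3H2 and did not pass (0.42 in the 5-library fit, edgeR adjusted p = 0.135). APOC1, a small exchangeable apolipoprotein, stood at 170.1, 174 and 129 CPM with P-T3H2-2A and at 140.3, 129 and 132 CPM with P-T3H2, and fell by 0.36 in the 5-library fit (edgeR adjusted p = 0.00159; -0.24 and 0.308 with all libraries), where APOE rose. APOC2, the activator of lipoprotein lipase, held 11.6 to 18.4 CPM and did not pass (-0.33, edgeR adjusted p = 0.0932). Of its exon bases 55.4% are shared with the readthrough locus APOC4-APOC2, which held 168 to 209 CPM, so its own level is uncertain, and APOC4 had 0 counts in every library.

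**Figure D4:**
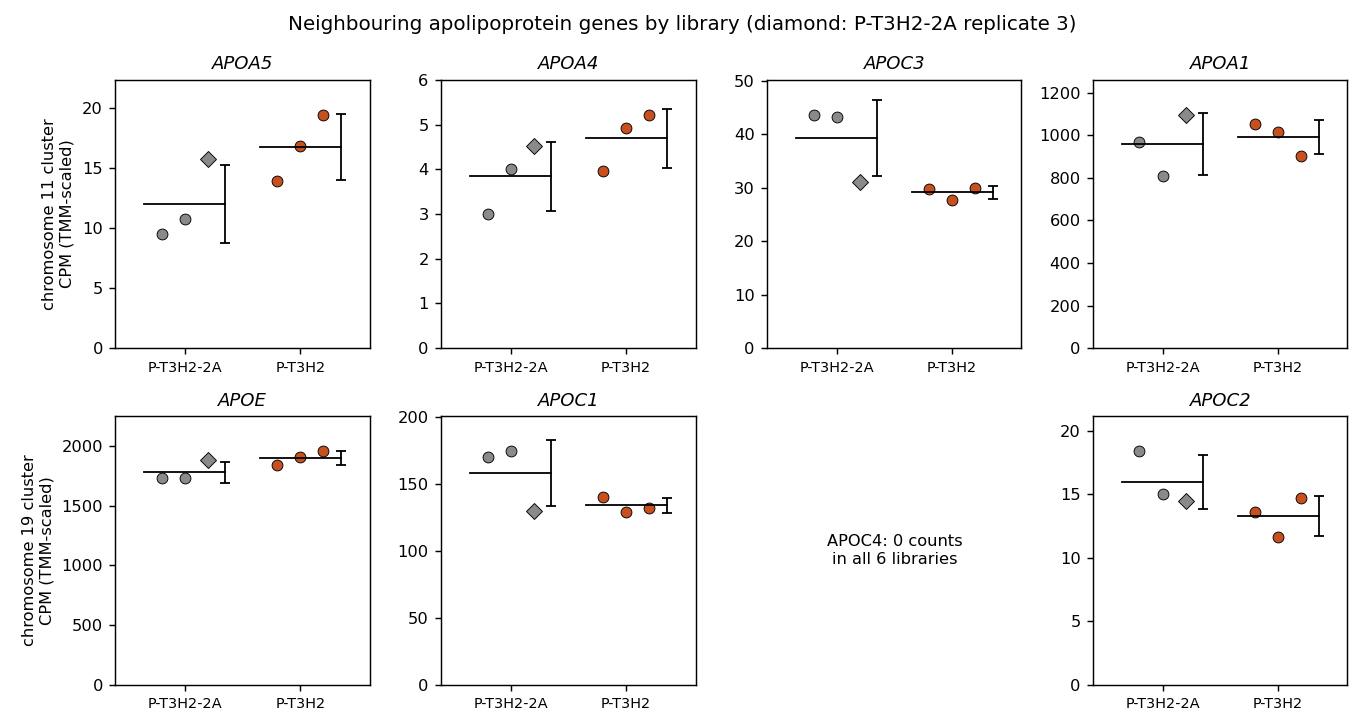
Scaled CPM (y axis, from 0) of the apolipoprotein genes in their order along chromosome 11 and chromosome 19 in each library; grey is P-T3H2-2A, orange is P-T3H2, lines are means and bars 1 SD (n = 3). APOC3 and APOC1 are lower and APOA5 is higher with P-T3H2 than in P-T3H2-2A replicates 1 and 2, and the diamond is replicate 3.

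Of 13 other apolipoprotein genes 9 were tested, and with all libraries edgeR called 0 of them (2 at an unadjusted p under 0.05), DESeq2 0 and limma-voom 0. In the 5-library fit 3 rose (APOA5, APOF and CLU) and 3 fell (APOC1, APOD and APOL6), with a median log2 fold change of 0.28, against 0.04 with all libraries. Of all genes 22.6% rose and 22.8% fell in the 5-library fit. With all libraries 2874 of 15946 genes had an unadjusted p under 0.05. Counts in this list and those below are to be read beside these shares, and no list was tested as a set. APOL6, an intracellular member of the APOL family, held 6.73 to 13.5 CPM with P-T3H2-2A, lowest in replicate 3, and 4.98 to 6.94 CPM with P-T3H2 (log2 fold change -1.17 in the 5-library and -0.91 in the 6-library fit). APOD, a lipocalin, stood at 1.91, 2.23 and 1.74 CPM with P-T3H2-2A and 1.07 to 1.27 CPM with P-T3H2, so replicate 3 lay with its own group (-0.79 in the 5-library fit, edgeR adjusted p = 0.0228, and -0.71 in the 6-library fit, adjusted p = 0.275). DESeq2 did not call APOD without control replicate 3 (adjusted p = 0.107).

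Exit of lipoproteins from the endoplasmic reticulum and their secretion was covered by 22 genes, all tested. With all libraries edgeR called 0 (3 at an unadjusted p under 0.05), DESeq2 0 and limma-voom 0. Without control replicate 3, 7 rose and 3 fell, beside 22.6% and 22.8% of all genes. The median was 0.09, against 0.11 with all libraries. SMLR1, a small membrane protein, measured 41.7 and 39.1 CPM for control replicates 1 and 2, 80.4 CPM for control replicate 3 and 77.4 to 90.7 CPM with P-T3H2, and SEC24A, a cargo adaptor of COPII coats, stood at 108 and 108, 160.2 and 163 to 173 CPM. They rose by 1.06 and 0.63 (log2) in the 5-library fit (edgeR, adjusted p = 0.000116 and 0.000123), with 0.65 and 0.42 in the 6-library fit. SEC13, a subunit of the outer coat, and PREB, the exchange factor that starts coat assembly, fell by 0.48 and 0.26 (edgeR, adjusted p = 0.000349 and 0.0175), with -0.35 and -0.26 in the 6-library fit. PREB stood at 71.5, 63.9 and 67.8 CPM with P-T3H2-2A and 55.6 to 57.4 CPM with P-T3H2, so replicate 3 lay with its own group.

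Triglyceride and phospholipid supply and lipid droplets were covered by 24 genes, of which 21 were tested. With all libraries edgeR called 0 (5 at an unadjusted p under 0.05), limma-voom 0 and DESeq2 1, GPAM (adjusted p = 0.0281). In the 5-library fit 7 rose and 7 fell, beside 22.6% and 22.8% of all genes. The median was 0.13, against 0.07 with all libraries. GPAM, the acyltransferase of the first step of glycerolipid synthesis, stood at 185, 186 and 131 CPM with P-T3H2-2A and at 101, 111 and 96.05 CPM with P-T3H2 (log2 fold change -0.86 in the 5-library fit, edgeR adjusted p = 0.000131, and -0.70 in the 6-library fit, adjusted p = 0.275). DGAT2, which makes triglyceride, measured 63.1 and 63.7 CPM for control replicates 1 and 2, 34.6 CPM for control replicate 3 and 33.1 to 37.5 CPM with P-T3H2 (-0.85 and -0.61 in the 5- and 6-library fits). ACSL1, which activates fatty acids, stood at 69.1, 78.1 and 59.1 CPM with P-T3H2-2A and 49.2 to 53.5 CPM with P-T3H2 (-0.53 and -0.43).

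Uptake and receptors were covered by 10 genes, all tested. With all libraries edgeR called 0 (1 at an unadjusted p under 0.05), DESeq2 0 and limma-voom 0. In the 5-library fit 0 rose and 3 fell, beside 22.6% and 22.8% of all genes. The median was -0.16, against -0.17 with all libraries. SCARB1, a receptor for high density lipoprotein, stood at 345, 349.5 and 278 CPM with P-T3H2-2A and 259.6 to 292 CPM with P-T3H2. It fell by 0.36 in the 5-library fit (edgeR, adjusted p = 0.00317), with -0.25 in the 6-library fit (adjusted p = 0.279).

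Plasma lipases and remodelling were covered by 15 genes, of which 11 were tested. With all libraries edgeR called 0 (3 at an unadjusted p under 0.05), limma-voom 0 and DESeq2 1, ABCA1 (adjusted p = 0.0346). Without control replicate 3, 3 rose and 3 fell, beside 22.6% and 22.8% of all genes. The median was 0.07, against 0.0002 with all libraries. PON1, an esterase of high density lipoprotein, and ANGPTL4, an inhibitor of lipoprotein lipase, rose by 0.79 and 1.42 in the 5-library fit (edgeR, adjusted p = 7.38e-05 and 0.000165). ABCA1, the exporter that lipidates APOA1, stood at 125, 137 and 139.9 CPM with P-T3H2-2A and 100.2 to 106 CPM with P-T3H2. ABCA1 and PLTP, the phospholipid transfer protein, fell by 0.36 and 0.67 (edgeR, adjusted p = 0.00294 and 0.00111). In the 6-library fit PON1, ANGPTL4, ABCA1 and PLTP had 0.50, 0.77, -0.39 and -0.52.

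Regulators of apolipoprotein genes numbered 22, of which 21 were tested. With all libraries edgeR called 0 (6 at an unadjusted p under 0.05), DESeq2 0 and limma-voom 0. In the 5-library fit 8 rose and 6 fell, beside 22.6% and 22.8% of all genes. The median was 0.30, against 0.21 with all libraries. HNF4A itself stood at 123, 123 and 76.5 CPM with P-T3H2-2A and at 74.5, 80.3 and 75.5 CPM with P-T3H2 (-0.49 in the 6-library and -0.69 in the 5-library fit, edgeR adjusted p = 0.275 and 0.000137). CREB3L3, a transcription factor of liver lipid metabolism, and NR5A2, a nuclear receptor, rose by 0.89 and 0.91 in the 5-library fit, and the oxysterol receptor gene NR1H3 and SREBF1, a regulator of lipid synthesis, fell by 0.68 and 0.24. In the 6-library fit they had 0.59, 0.54, -0.52 and -0.27.

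**Figure D5:**
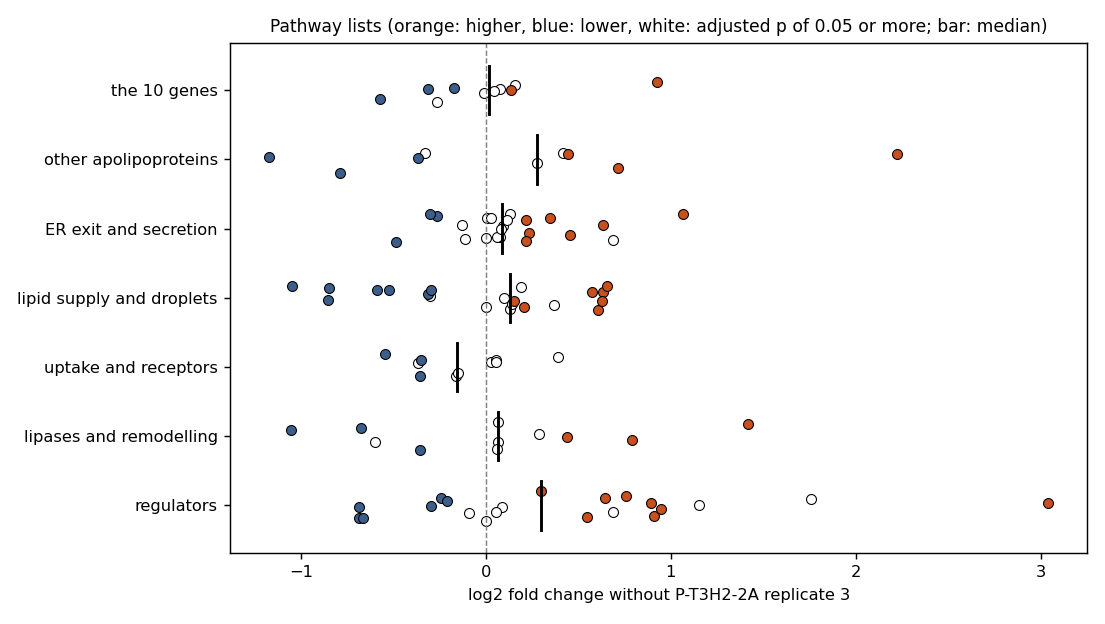
Log2 fold change without P-T3H2-2A replicate 3 (x axis) for the tested genes of each list, coloured by whether they passed as higher, as lower or not at all in edgeR; bars are list medians, and vertical jitter has no meaning. The medians run from -0.16 for uptake and receptors to 0.30 for regulators.

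Over the 6 libraries, the genes most like APOB in log2 CPM were REEP4, FBXL6 and SLC35E3 (Pearson r of 0.996, 0.993 and 0.992), and those most like MTTP were B9D1, TMED10 and DPH5 (0.999, 0.998 and 0.998), among 11392 genes with a mean of at least 5 CPM. An r above 0.95 was reached by 137 genes for APOB and by 1599 for MTTP. The points share their libraries and the split of P-T3H2-2A replicates 1 and 2 from the rest, so this is a description only.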

How the data were processed

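RNA of 6 Huh7 libraries was sequenced, and titles and treatment labels gave the groups. Per the file headers, the authors deposited gene counts and FPKM for each library, and every column matched a sample title. Per the submitters' processing notes, the tools were HISAT2 2.0.4, StringTie 1.3.3b and edgeR, with no roles given, and a mouse build is named there although the table lists human genes. Neither annotation nor strand setting is stated in the sources used here. The labels name a VAHTS Universal V6 and a SMARTER kit without tying either to a library. Coordinates of the 10 genes are those of the table and match a GRCh38 annotation.

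The 10 genes and all gene lists were chosen with earlier results of these data known. The deposited counts were tested with edgeR 4.0.16 in R 4.3.3: genes were kept by filterByExpr (at least 10 counts, 15 in total), scaled by TMM and fitted by quasi-likelihood on the peptide alone, and p-values were adjusted over all genes by Benjamini-Hochberg at 0.05, first with all libraries and then without P-T3H2-2A replicate 3. Printed CPM values are scaled by library total and TMM factor. DESeq2 1.42.0, limma 3.58.1 on counts and on log2(FPKM + 1), other scalings and filters, a replicate block and each library left out were alternatives. The tests were checked on simulated data, where the share of false calls in the 5-library fit (26 of 203) was above the nominal rate. Of simulated 2-fold changes 52% were recovered in the 6-library and 81% in the 5-library fit. A gene that did not pass may therefore still have changed. No simulated library lay as a whole with the other group, and no change under 2-fold was simulated. These shares need not hold for the real libraries. Named genes were the 10 genes, HNF4A, other apolipoproteins, the 2 genes of smallest p per list and fit, and the 3 genes most like APOB and MTTP; 1 gene that this rule names is not reported here. Counting error covers sampling of reads only.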

Additional observations from a re-analysis of the deposited data

How the results depend on the processing

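With all libraries edgeR called 1 gene. The count was 117 with DESeq2, 3 with limma-voom, 4 with no filter on low counts, 2 with limma on log2(FPKM + 1) and 62 with P-T3H2-2A replicate 3 as the only control. Leaving out 1 library at a time gave 0 to 7390 genes, the latter without P-T3H2-2A replicate 3. Without that library the count was 6639 with DESeq2, 7305 with limma-voom, 7404 with DESeq2 size factors and 7381 with library totals. Of the 10 genes 0 were called with all libraries, 0 to 5 with 1 library left out, and, without P-T3H2-2A replicate 3, 3 with DESeq2 and 5 with limma-voom, with DESeq2 size factors and with library totals.

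Some values changed sign between settings. APOA1 was -0.14 against the lone control and -0.064 to 0.16 with 1 library left out. APOA2 was 0.00056 with limma-voom, 0.0051 and 0.0052 on FPKM with pseudocounts of 1 and 0.1, and -0.22 to 0.10 with 1 library left out. Without P-T3H2-2A replicate 3 it was 0.075 with DESeq2, 0.11 with limma-voom, 0.077 with DESeq2 size factors and 0.089 with library totals. APOM was 0.0018 with library totals, 0.0090 with a mean of at least 5 CPM, 0.0025 on both FPKM scales and -0.041 to 0.043 with 1 library left out. Without P-T3H2-2A replicate 3 it was 0.039, 0.042, 0.041 and 0.051 in the same order of tools. TM6SF2 without it was -0.015, -0.0093, -0.013 and -0.0026, and -0.011 to 0.19 with 1 library left out; it had no value under the filters on mean CPM and FPKM. Against the lone control APOC1 was 0.050, DGAT2 0.027, ANGPTL4 -0.0095 and NR5A2 -0.0031. Of the other values of the 10 genes under alternatives, 147 kept direction and side of the threshold and 23 passed it in the same direction.

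Deviations from the group mean correlated at -0.05, 0.16 and 0.11 between same-numbered libraries and at -0.19 to 0.13 between differently numbered ones. P-T3H2-2A replicate 3 stood apart from its group mean, so these values cannot settle whether replicate numbers pair the libraries. The fit with a replicate block called 0 genes (3132 at an unadjusted p under 0.05) and 0 of the 10. Depth limits TM6SF2 most, and the cause of the changes without P-T3H2-2A replicate 3 was not tested.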

Other observations

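Named after their values were seen, 3 genes of the lists above are given here with their values in each library. A1CF, the cofactor of APOB messenger RNA editing, stood at 421, 421 and 422 CPM with P-T3H2-2A and at 418, 421 and 424 CPM with P-T3H2, a coefficient of variation of 0.173% and 0.725%, while the editing enzyme gene APOBEC1 had 0 counts in every library. PPARGC1A, a transcriptional coactivator, measured 3.24 and 1.78 CPM for control replicates 1 and 2, 21.6 CPM for control replicate 3 and 15.95 to 23.4 CPM with P-T3H2 (log2 fold change 3.04 in the 5-library and 1.20 in the 6-library fit, edgeR adjusted p = 0.000972 and 0.395). APOL2 stood at 16.2, 16.1 and 24.8 CPM with P-T3H2-2A and at 26.9, 24.4 and 7.53 CPM with P-T3H2, where replicate 3 was the lowest of all libraries.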
